A study of Mus musculus with 12 samples.

Results

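The genes described here encode the nuclear pore complex and the carriers that move proteins and RNA through it, measured by RNA-seq in mouse BCR-ABL1-transformed pre-B cells with and without the GSK3β inhibitor LY2090314. Members were chosen by symbol: Nup, Ipo, Xpo or Kpna followed by a digit, together with Kpnb1, Tnpo1, Tnpo2, Tnpo3, Ran, Ranbp1, Ranbp2, Rangap1, Rcc1, Cse1l and Tpr. Of 50 genes with such symbols, 47 had a mean level of at least 3 on the deposited rlog scale and were members, among 11536 genes kept at that limit and 41444 in the table. The other 3 were Kpna7, listed at 0, Nup62cl at a mean of -1.96 and Kpna2-ps at 2.59. Nup62 was not analysed here, and Nup58 and Nup42 stand in the table under their older symbols Nupl1 and Nupl2, outside the rule. The Nup98 gene also encodes Nup96, so its value covers both proteins.

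The cells were bone marrow pre-B cells of Ctnnb1 fl/fl mice, transformed with a BCR-ABL1 retrovirus as a model of B cell acute lymphoblastic leukemia. Both groups compared carried an ERT2 vector without Cre, so the floxed β-catenin gene was left intact, and both received 1 µM 4-hydroxytamoxifen (4-OHT) for 2 days. The control group (ERT2, 3 libraries) had no inhibitor, and the other (ERT2_Ly, 3 libraries) received 40 nM LY2090314 for 1 day by the labels, while the study's text also gives a shorter exposure. LY2090314 blocks GSK3β, the kinase that marks β-catenin for degradation. The labels list 12 samples in 4 groups of 3, and the groups with Cre are not used here because their 6 columns cannot be assigned by name. The labels name no animal for a library, while the study's text describes the replicates as mice and as biological. Which library came from which mouse is not given, so p-values measure the spread between these libraries. That spread may be technical in part. Control libraries 1 to 3 and LY2090314 libraries 1 to 3 are numbered here in the order of the numbers in their column names. LY2090314 libraries 1 and 2 share a library number and differ by a letter, and whether they are separate cultures is not stated.

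Nuclear pores are large protein assemblies in the nuclear envelope. A Y-shaped complex of nucleoporins builds the outer rings, further nucleoporins form the inner ring, and nucleoporins rich in phenylalanine-glycine repeats fill the channel. Importins bind cargo in the cytoplasm and release it when they meet RanGTP in the nucleus, while exportins bind cargo together with RanGTP and release it in the cytoplasm. The direction comes from Rcc1, which loads Ran with GTP on chromatin, and from Rangap1, which with Ranbp1 and Ranbp2 has the GTP hydrolysed outside the nucleus. Dividing cells also use Ran and the importins to build the spindle and to rebuild the nuclear envelope.

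Most pore and transport genes were lower with LY2090314. Of the 47 members, 29 fell, 3 rose and 15 did not pass the test (limma, Benjamini-Hochberg adjusted p over the 11536 genes, threshold 0.05). Among all genes tested, 25.3% were called lower and 24.8% higher, compared with 61.7% and 6.38% of the members. The groups did not overlap, with LY2090314 lower, for 32 members and, with LY2090314 higher, for 3. Over all genes, 29.5% did not overlap with LY2090314 lower and 29.1% with it higher. Values are rlog values, which are log2 counts scaled for library size and shrunk where counts are low. A difference of 1 is thus a doubling, and differences of genes with low counts are understated. The median difference of the members (LY2090314 minus control) was -0.28, a 1.21-fold lower level, with quartiles of -0.47 and -0.10, compared with a median of 0.01 and quartiles of -0.23 and 0.25 for all genes. Counting LY2090314 libraries 1 and 2 as 1 sample gave 29 members lower and 2 higher. The falls were modest in size: 11 of the 47 members changed by at least 0.5, and all 11 fell and were called. Of the 11536 genes, 2388 were called with a difference of at least 0.5, 1081 of them lower and 1307 higher. The members thus differed from all genes in the direction of such changes, and a difference in how frequent they are is not read from these counts. With 3 against 3 libraries, the exact two-sided permutation test of a single gene cannot give a p under 0.1, and RNA of bulk cells cannot tell fewer cells of a type from less RNA per cell.

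**Figure D1:**
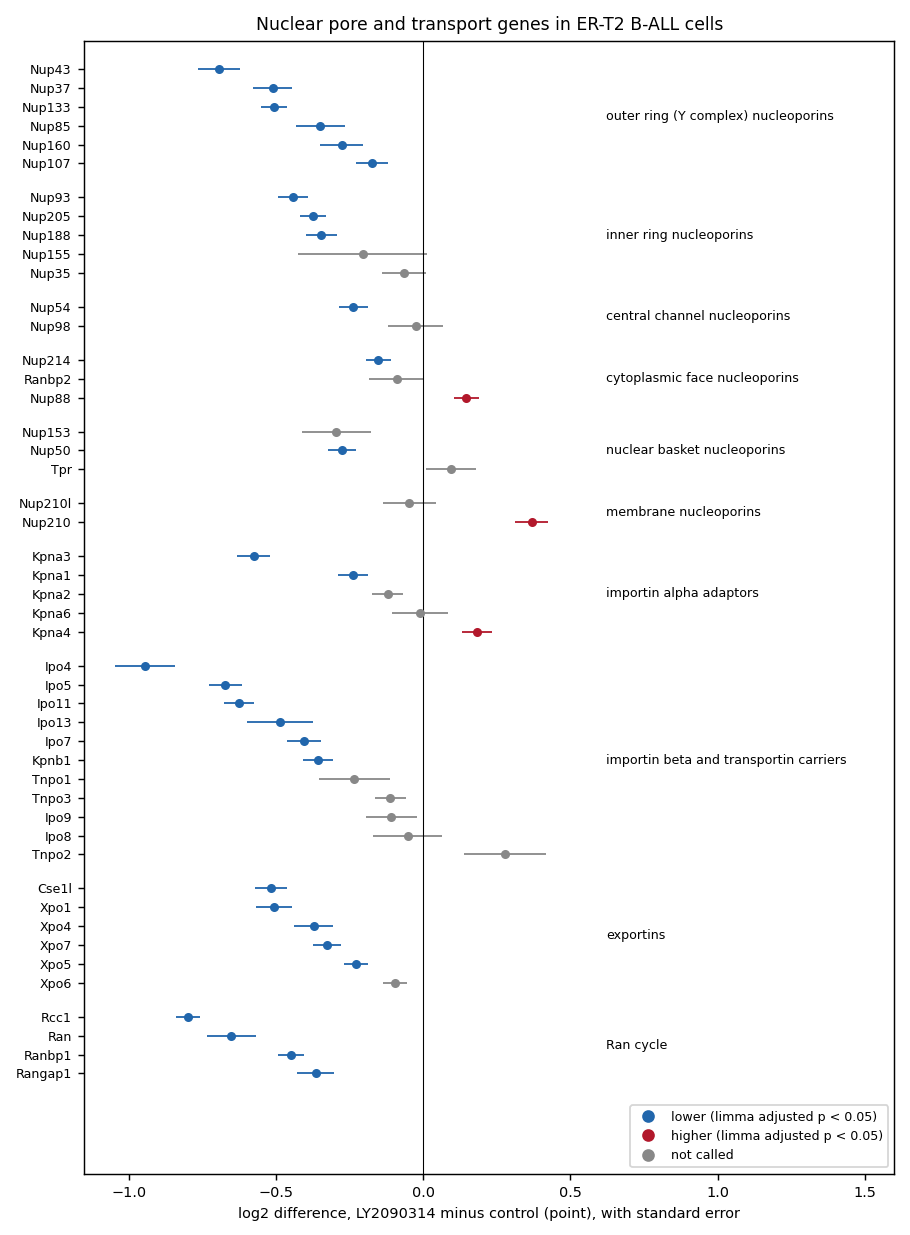
Difference in rlog (LY2090314 minus control, log2) for each of the 47 members, arranged by role, with bars for the standard error of the limma fit and colour for the call. The Ran cycle and outer ring members all lie below 0, and Nup210, at 0.37, lies farthest above it.

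**Figure D2:**
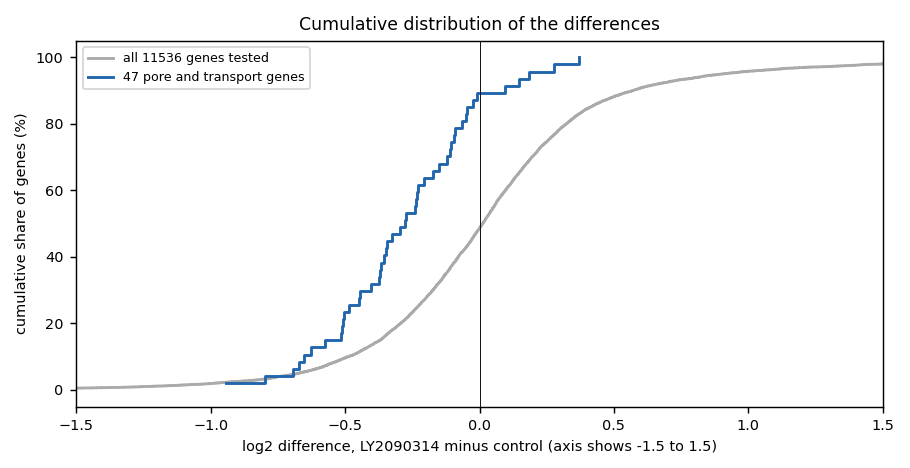
Cumulative share of genes (y axis) against the rlog difference (LY2090314 minus control, log2, x axis) for the 47 members and for all 11536 genes tested. Above the largest falls, the curve of the members runs to the left of that of all genes, with medians of -0.28 and 0.01.

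Facts of the libraries that bear on these values are as follows. Of 7 genes fixed to check the treatment, Nkd1, Tcf7, Axin2 and Lef1, targets or partners of β-catenin, rose by 5.44, 2.62, 1.67 and 0.80, Myc fell by 2.64 and Ctnnb1 by 0.35, and Gsk3b differed by 0.13 (adjusted p = 0.051). All 11 markers of the B lineage were above the limit, 9 of them lower (81.8%) and 1, Il7r, higher (9.09%) with LY2090314. Of all genes tested, 25.3% were called lower and 24.8% higher. The summed level of the B lineage markers ranged from 16.37 to 16.39 in controls and from 15.82 to 15.95 with LY2090314. Summed T cell markers ranged from 11.36 to 11.47 in controls and from 12.26 to 12.51 with LY2090314, with 1 of 6, Lck, above the limit and Cd3e at or below 0. Summed myeloid markers ranged from 6.32 to 6.50 and from 7.51 to 7.56, with 3 of 7 above the limit. Among these Ly6g (2.96) and Lyz2 (0.53) rose, while Mpo and Elane were listed at 0. Of 6 erythroid markers 1 was above the limit, with summed levels of 4.42 to 4.46 and 4.14 to 4.17, and none of 6 stromal markers was, with 2.54 to 2.58 and 2.53 to 2.56. Of 20 proliferation genes, 17 fell (85%) and 1, Aurka, rose (5%), with a median of -0.29. The falls included Mcm7 (-0.67), Ccna2 (-0.66), Pcna (-0.54) and Mki67 (-0.49). The members had shares of 61.7% and 6.38% and a median of -0.28, and all genes had shares of 25.3% and 24.8%. The part of the marker and proliferation genes in the results of the members was not tested.

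Since Myc was among the genes that fell, the start regions of the members were read for CACGTG, the E-box letters that Myc with Max and several other factors can bind. Regions of 250 bases before to 50 after the start came from RefSeq (GRCm38.p6), where 37 of the 47 members matched. CACGTG, which reads the same on both strands, was found in 8 of the 37, 21.6% of these genes, compared with 8.09% of all 27025 genes with such a region and 7.15% of all promoters of that length. Those 27025 genes include genes below the expression limit used here, while every member was above it. The shares here and for the letters below thus compare unlike sets, and an enrichment was not tested. Of these 8 members, 6 were among the 22 matched members that fell and 2 were among the other 15. The median rlog difference was -0.37 for matched members with the letters and -0.23 for those without. The windows around each match follow, read 5′ to 3′ on the gene's strand, with CACGTG in capitals. The first 6 belong to members that fell, and the last 2 to members that did not pass the test.
Ran (chr5:129020018-129020063, plus strand): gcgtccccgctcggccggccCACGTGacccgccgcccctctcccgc
Ipo4 (chr14:55635656-55635679, minus strand): cggagtctcCACGTGccgatcctc
Ipo7 (chr7:110018158-110018203, plus strand): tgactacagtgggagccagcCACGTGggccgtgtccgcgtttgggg
Nup93 (chr8:94214369-94214414, plus strand): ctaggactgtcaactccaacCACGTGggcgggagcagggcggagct
Nup54 (chr5:92435274-92435319, minus strand): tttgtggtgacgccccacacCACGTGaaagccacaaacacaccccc
Nup188 (chr2:30286330-30286415, plus strand): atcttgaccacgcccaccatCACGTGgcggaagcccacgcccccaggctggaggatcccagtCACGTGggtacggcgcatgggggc
Ranbp2 (chr10:58446745-58446790, plus strand): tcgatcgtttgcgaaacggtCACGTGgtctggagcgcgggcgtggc
Tnpo2 (chr8:85036718-85036802, plus strand): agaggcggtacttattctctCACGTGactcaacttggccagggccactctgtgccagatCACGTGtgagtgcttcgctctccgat

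The match in Ran began 118 bases before the start, that in Ipo7 137, in Nup93 175, in Nup54 100 and in Ranbp2 87 bases before it, and that in Ipo4 began 14 bases after it. Nup188 held the letters at 66 and 24 bases before the start, and Tnpo2 at 155 and 116. Nup93 and Tnpo2 each have a further start region, and neither of these held the letters. A gene was counted if any of its regions did. The CCAAT box, searched on both strands, was found in 19 of the 37 members, 9 of the 22 that fell and 10 of the other 15, compared with 41.1% of all genes and 37.4% of all promoters. The median rlog difference was -0.21 for members with CCAAT and -0.32 for those without. CTTTGATC, a form of the site of the TCF/LEF partners of β-catenin, was found on either strand in 0 of the 37, in 1.09% of all genes and in 0.938% of all promoters. These are matches of letters in a fixed window, and binding was not measured.

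All 4 members of the Ran cycle were called lower, with a median difference of -0.55, while 25.3% of all genes were called lower. Rcc1 (ENSMUSG00000028896, chr4:132331919-132353605, GRCm38), the guanine nucleotide exchange factor that makes RanGTP, was at 11.63, 11.65 and 11.65 in the controls and at 10.83, 10.86 and 10.85 with LY2090314. The control libraries lay close together (SD 0.00967, n = 3) and far above all 3 treated ones (SD 0.0181, n = 3). Rcc1 was thus 1.74-fold lower (log2 difference -0.80, SE 0.041, limma adjusted p = 3.0e-06). Ran itself (ENSMUSG00000029430, chr5:129020069-129024323), the GTPase of the cycle, was at 13.95, 14.11 and 14.25 in the controls and at 13.48, 13.38 and 13.50 with LY2090314. Control 1 was the lowest control and still lay above every treated library, and Ran was 1.57-fold lower (-0.65, SE 0.083, limma adjusted p = 0.00042).

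Ranbp1, the cytoplasmic helper of Rangap1, was at 12.21, 12.22 and 12.19 in the controls and at 11.74, 11.74 and 11.80 with LY2090314. Its groups did not overlap, and it was 1.36-fold lower (-0.45, SE 0.043, limma adjusted p = 9.1e-05). Rangap1, the GTPase-activating protein, was at 12.52, 12.52 and 12.64 in the controls and at 12.14, 12.14 and 12.30 with LY2090314. It had the smallest difference of the 4, a 1.29-fold lower level (-0.37, SE 0.064, limma adjusted p = 0.0021), and library 3 was the highest in both groups. Rcc1 shares 135 exon bases with Snhg3 on the same strand, and Snhg3 was at 7.49 in the controls and 7.26 with LY2090314. Ranbp1 shares 281 exon bases with Gm49776.

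**Figure D3:**
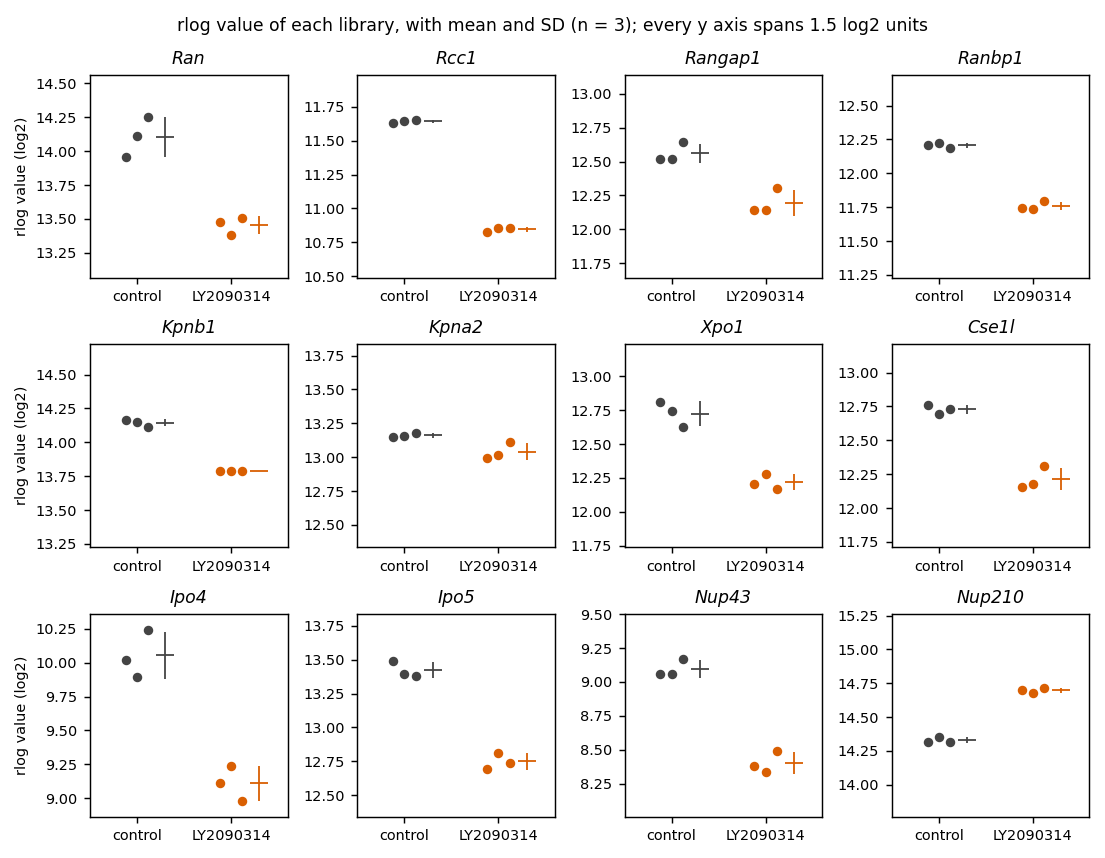
Rlog value (log2, y axis) in each of the 3 control and 3 LY2090314 libraries for 12 of the members, 1 point per library beside a cross at the group's mean with its SD (n = 3), every y axis spanning the same range. In all 12 the groups do not overlap, the treated libraries lie below the controls in 11 and above them in Nup210, and the gap is narrowest in Kpna2.

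Import carriers of the importin beta family held the largest single fall. Of 11 importin beta and transportin members, 6 fell (54.5%), none rose and 5 did not pass the test, with a median of -0.36. For comparison, 25.3% of all genes were called lower and 24.8% higher. Ipo4 (ENSMUSG00000002319, chr14:55625400-55635957), a carrier of histones and ribosomal proteins, was at 10.02, 9.90 and 10.25 in the controls and at 9.11, 9.24 and 8.98 with LY2090314. The groups lay well apart although each spread more than those of most members, and Ipo4 was 1.92-fold lower (-0.94, SE 0.10, limma adjusted p = 0.00017). It took place 266 among all genes ordered by the size of their fall. Ipo4 shares 2583 exon bases with Gm49378 on the same strand, so its reads may be divided between both gene models.

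Ipo5, which carries ribosomal proteins and histones, was at 13.49, 13.40 and 13.38 in the controls and at 12.69, 12.81 and 12.74 with LY2090314. It was 1.59-fold lower (-0.67, SE 0.056, limma adjusted p = 4.4e-05) and, being among the most abundant carriers, fell from a high level. Ipo11 was at 11.40, 11.35 and 11.38 in the controls and at 10.68, 10.75 and 10.82 with LY2090314. It was 1.54-fold lower (-0.63, SE 0.051, limma adjusted p = 3.7e-05), with no overlap between the groups.

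Kpnb1 (ENSMUSG00000001440, chr11:97159714-97187881), importin β1, the carrier of the classical import pathway, was at 14.17, 14.15 and 14.11 in the controls and at 13.79, 13.79 and 13.78 with LY2090314. Its libraries were tight within both groups, and it was 1.28-fold lower (-0.36, SE 0.051, limma adjusted p = 0.00078). Ipo13, which works in both directions, differed by -0.49 (adjusted p = 0.0079), and Ipo7, a carrier of ribosomal proteins and histone H1, by -0.40 (adjusted p = 0.00067). The 5 that did not pass were Tnpo1 at -0.23, Ipo9 and Tnpo3 at -0.11, Ipo8 at -0.05 and Tnpo2 at 0.28. Tnpo3, the importer of splicing factors rich in serine and arginine, passed as lower without LY2090314 library 3 (-0.15, adjusted p = 0.032).

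The importin alpha adaptors hold the classical nuclear localization signal and hand it to Kpnb1. Of 5 tested, 2 fell (40%), 1 rose (20%) and 2 did not pass the test, with a median of -0.12. Over all genes 25.3% fell and 24.8% rose, and nothing particular to the adaptors is read from these counts. Kpna3 (chr14:61365211-61439874) was at 11.97, 11.87 and 11.85 in the controls and at 11.25, 11.31 and 11.40 with LY2090314. It was 1.49-fold lower (-0.57, SE 0.056, limma adjusted p = 0.00010). Its close paralog Kpna4 (chr3:69067149-69127113) was at 11.74, 11.67 and 11.61 in the controls and at 11.82, 11.85 and 11.91 with LY2090314. Kpna4 was 1.13-fold higher (0.18, SE 0.052, limma adjusted p = 0.020), with no overlap. That rise was no longer called without control 2 (adjusted p = 0.066), control 3 (0.056) or LY2090314 library 2 (0.052).

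The gap between these paralogs changed. Per length of all annotated exons joined (4.298 kb for Kpna3, 8.94 kb for Kpna4), Kpna3 stayed above Kpna4 in both groups. Levels on that scale, rlog minus log2 of kilobases, were 9.80 and 8.52 in the controls and 9.22 and 8.70 with LY2090314. Without correction for length, which is the same in every library, Kpna4 minus Kpna3 within a library was -0.23, -0.20 and -0.24 in the controls and 0.57, 0.53 and 0.50 with LY2090314. The mean gap thus went from -0.22 ± 0.022 to 0.53 ± 0.032 (SD, n = 3 each), a change of 0.76 (exact two-sided permutation p = 0.1, the smallest possible; 0.15 adjusted over the 3 pairs compared). Tnpo2 minus Tnpo1, the carriers of proteins with a proline-tyrosine signal, was -3.43, -3.16 and -3.26 in the controls and -2.76, -2.67 and -2.88 with LY2090314. The groups did not overlap, and the gap changed by 0.51 (exact permutation p = 0.1, adjusted 0.15). Ipo8 minus Ipo7 changed by 0.35, with overlapping groups (exact permutation p = 0.2, adjusted 0.2). These 3 pairs were not among the planned results, and whether they were chosen before the values were seen is not recorded. Other related pairs were not compared, so the gaps and their p-values are descriptions only.

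**Figure D4:**
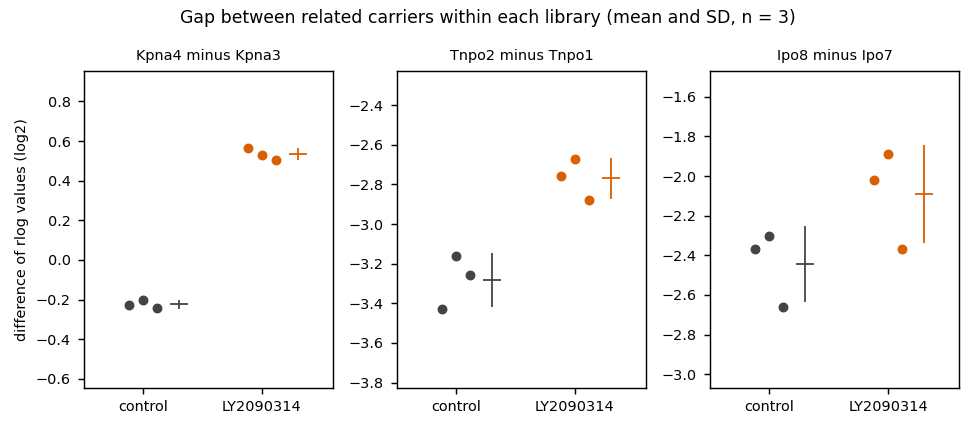
Rlog difference between 2 paralogs within a library (log2, not corrected for length, y axis) for Kpna4 minus Kpna3, Tnpo2 minus Tnpo1 and Ipo8 minus Ipo7, with 1 point for each control and LY2090314 library and a cross at the group mean with its SD (n = 3). Kpna4 minus Kpna3 lies below 0 in all 3 controls and above 0 in all 3 treated libraries.

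Kpna2, the importin alpha tied to dividing cells, was at 13.15, 13.15 and 13.18 in the controls and at 12.99, 13.02 and 13.11 with LY2090314. Its groups did not overlap, but the difference of -0.12 (SE 0.052) missed the threshold (limma adjusted p = 0.088). It passed as lower without LY2090314 library 3 (-0.16, adjusted p = 0.015). Kpna1 fell by 0.24 (adjusted p = 0.0057), and Kpna6 differed by -0.01 (adjusted p = 0.93).

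Among the exportins, 5 of 6 fell (83.3%), none rose and the groups did not overlap for any of the 6, with a median of -0.35. For comparison, 25.3% of all genes were called lower, and 29.5% did not overlap with LY2090314 lower. Xpo1 (chr11:23256041-23298249), CRM1, the exporter of proteins with a leucine-rich export signal, was at 12.81, 12.74 and 12.62 in the controls and at 12.21, 12.28 and 12.17 with LY2090314. It was 1.42-fold lower (-0.51, SE 0.062, limma adjusted p = 0.00032), and every treated library lay below every control. Cse1l, which returns importin alpha to the cytoplasm, was at 12.76, 12.70 and 12.73 in the controls and at 12.16, 12.17 and 12.31 with LY2090314. It was 1.43-fold lower (-0.52, SE 0.056, limma adjusted p = 0.00017). Smaller falls were measured for Xpo4 (-0.37), Xpo7 (-0.33) and Xpo5 (-0.23), the exporter of microRNA precursors. Xpo6, the exporter of actin, differed by -0.09 and did not pass the test (adjusted p = 0.091).

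The nucleoporins were divided by their place in the pore. Over all 21 nucleoporin members, 12 fell (57.1%), 2 rose (9.52%) and 7 did not pass the test, with a median of -0.24. Over the 26 carriers and Ran cycle members 17 fell (65.4%), 1 rose (3.85%) and 8 did not pass, with a median of -0.36. These shares, and the outer ring count below, stand beside 25.3% lower and 24.8% higher among all genes. All 6 outer ring members with a gene of their own were called lower, with a median of -0.43. Nup96, a further outer ring protein, is encoded by Nup98, which did not pass the test (-0.03, limma adjusted p = 0.84). Nup43 (ENSMUSG00000040034, chr10:7667503-7678881) was at 9.06, 9.06 and 9.17 in the controls and at 8.38, 8.34 and 8.49 with LY2090314. It had the largest fall of any nucleoporin member, 1.62-fold (-0.69, SE 0.071, limma adjusted p = 0.00013).

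Nup37, next to Nup43 a peripheral subunit of the Y complex, was at 9.45, 9.46 and 9.53 in the controls and at 9.03, 8.87 and 9.01 with LY2090314. It was 1.43-fold lower (-0.51, SE 0.065, limma adjusted p = 0.00042). Nup133, at the end of the stem of the Y, was at 11.07, 11.06 and 11.10 in the controls and at 10.60, 10.54 and 10.57 with LY2090314. It was 1.42-fold lower (-0.51, SE 0.043, limma adjusted p = 4.7e-05), and the groups lay far apart relative to their spread.

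The other outer ring members fell less, Nup85 by 0.35 (adjusted p = 0.010), Nup160 by 0.28 (adjusted p = 0.014) and Nup107 by 0.17 (adjusted p = 0.029). Nup160 was no longer called without control 1 (adjusted p = 0.051) or LY2090314 library 2 (0.051). Nup107 was no longer called without control 1 (0.071), control 2 (0.12), or LY2090314 library 1 (0.065) or 3 (0.056).

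The inner ring had 3 falls among 5 members (60%, beside 25.3% of all genes) and a median of -0.35. Nup93 differed by -0.44 (adjusted p = 0.00024), Nup205 by -0.37 (adjusted p = 0.00025) and Nup188 by -0.35 (adjusted p = 0.00098). Nup35 differed by -0.07 (adjusted p = 0.50). Nup155, the link to the pore membrane, was at 9.72, 9.81 and 9.11 in the controls and at 9.62, 9.45 and 8.95 with LY2090314, a difference of -0.21 (SE 0.22, limma adjusted p = 0.47). Library 3 was the lowest in both of its groups, and the groups overlapped.

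In the central channel, Nup54 fell by 0.24 (adjusted p = 0.0051) and Nup98 did not pass the test. Nup98, a channel protein with glycine-leucine-phenylalanine-glycine repeats, was at 7.56, 7.51 and 7.51 in the controls and at 7.49, 7.65 and 7.36 with LY2090314, a difference of -0.03 (SE 0.094, limma adjusted p = 0.84). Its treated libraries lay on both sides of the controls.

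At the cytoplasmic face, Nup214 fell by 0.15 (adjusted p = 0.020) while Nup88, its binding partner, rose. Nup88 was at 10.53, 10.50 and 10.55 in the controls and at 10.68, 10.66 and 10.68 with LY2090314. It was 1.11-fold higher (0.15, SE 0.043, limma adjusted p = 0.023), a small difference with no overlap. Nup88 was no longer called without control 1 (0.15, adjusted p = 0.064), control 2 (0.13, 0.096), or LY2090314 library 1 (0.14, 0.074) or 2 (0.15, 0.059), nor with both libraries of shared number counted as 1 sample (0.15, 0.061), with median centring (0.12, 0.060) or without a trend (0.15, 0.051). Nup214 was no longer called without control 1 (-0.14, 0.069), control 2 (-0.16, 0.060) or LY2090314 library 2 (-0.15, 0.068), so the size of both differences changed little. Ranbp2, the SUMO ligase of the cytoplasmic filaments, was at 13.46, 13.30 and 13.13 in the controls and at 13.23, 13.31 and 13.09 with LY2090314, with overlapping groups (-0.09, SE 0.094, limma adjusted p = 0.46).

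In the nuclear basket, Nup50 fell by 0.27 (adjusted p = 0.0022). Nup153 was at 12.06, 12.11 and 11.92 in the controls and at 11.87, 11.88 and 11.45 with LY2090314. Its groups did not overlap, and the difference of -0.29 (SE 0.12) did not pass the test (limma adjusted p = 0.069). Without LY2090314 library 3, the lowest, the difference was -0.15 and did not pass either (adjusted p = 0.077). Tpr, the main filament of the basket, was at 13.40, 13.16 and 13.11 in the controls and at 13.25, 13.40 and 13.31 with LY2090314, with overlapping groups (0.09, SE 0.084, limma adjusted p = 0.39).

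Nup210 (ENSMUSG00000030091, chr6:91013068-91116829), a membrane-spanning nucleoporin of the pore lumen whose use differs between cell types, had the largest rise of any member. It was at 14.32, 14.35 and 14.32 in the controls and at 14.70, 14.68 and 14.71 with LY2090314. The libraries of each group lay close together, all treated ones above all controls, and Nup210 was 1.29-fold higher (0.37, SE 0.056, limma adjusted p = 0.0011). Its relative Nup210l, at low level, differed by -0.05 (adjusted p = 0.70).

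Levels can be compared between genes only per length. The length used joins the annotated exons of every transcript of a gene and can exceed that of the transcript expressed, so the order of genes depends on it. Levels are given here as rlog minus log2 of that length in kilobases. On that scale Ran had the highest control level of the members, 12.70, and Kpna2 the next, 11.64, followed by Ranbp1 at 11.47, Kpnb1 at 11.42, Nup210 at 10.94 and Ipo5 at 10.84. With LY2090314 Ran was at 12.05 and Kpna2 at 11.52, and Nup210, at 11.31, came above Kpnb1 at 11.07 and Ranbp1 at 11.02. Nup210 thus moved from place 5 to place 3, as the only member of the first 6 that rose. The lowest control levels per length were those of Nup155 (5.97), Nup98 (3.87) and Nup210l (1.79).

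Library 3 of each group stood apart for some members. Of the 47, 12 had their lowest value of the group in library 3 in both groups. Of the 11 members whose SD exceeded 0.15 in either group, 7 were lowest there in both: Nup155, Tnpo1, Ipo8, Tnpo2, Ranbp2, Nup85 and Nup153. Nup155 lay 0.66 below the mean of the other controls in control 3 and 0.58 below that of the other treated libraries in LY2090314 library 3. Nup153 lay 0.17 and 0.43 below. Across the 47 members the departures of the 2 libraries had a Pearson r of 0.61, and across 11503 genes with an exon length 0.34, given as descriptions since genes of a library share its depth and RNA. Over these genes the departure had an r of -0.26 with log2 exon length in control 3 and -0.27 in LY2090314 library 3, while the difference between the groups had an r of 0.05 with length over all genes and 0.43 over the members. The part of gene length in these values was not tested further.

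**Figure D5:**
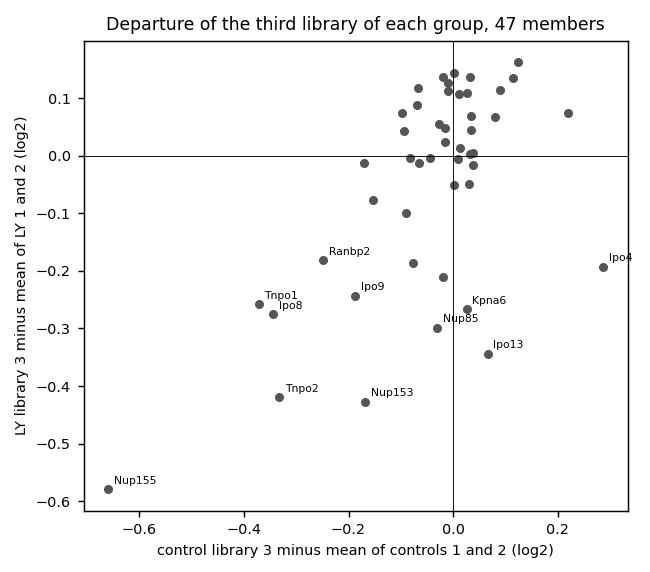
Departure of library 3 from the mean of the other 2 libraries of its group (rlog, log2), with control 3 on the x axis and LY2090314 library 3 on the y axis, 1 point per member. Nup155, at -0.66 and -0.58, lies lowest on both axes.

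Without library 3 in both groups, an alternative chosen after the data were seen, 34 members were lower and 4 higher. The treated libraries left in that fit are those of shared number, so its calls may rest on 1 treated sample. Members that then passed as lower included Nup153 (-0.21, adjusted p = 0.0024), Tnpo1 (-0.27, 0.0051), Nup155 (-0.23, 0.035), Kpna2 (-0.15, 0.0052) and Tnpo3 (-0.12, 0.023), and Tnpo2 passed as higher (0.31, 0.0053). Without control 3 alone, Tnpo1 passed as lower (-0.36, adjusted p = 0.023), and without LY2090314 library 3 alone, Tnpo2 passed as higher (0.42, adjusted p = 0.017).

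Of 19 genes with other symbols listed as pore, transport or related genes, 9 fell (47.4%) and 3 rose (15.8%), with a median of -0.12. The list holds Ranbp9, Ranbp10 and Mvp, which are neither pore components nor carriers, so its shares are not those of pore and transport genes alone. The shares of all genes were 25.3% and 24.8%. Ndc1, which anchors the pore in the membrane, was at 11.35, 11.38 and 11.35 in the controls and at 10.59, 10.52 and 10.61 with LY2090314, a difference of -0.79 (limma adjusted p = 6.5e-06). It fell together with Nutf2 (-0.51), the importer of Ran, and Seh1l (-0.48), a further Y complex subunit. Ahctf1, which starts pore assembly on chromatin, differed by -0.48 and Rae1 by -0.46, and Aaas, Pom121, Sec13 and Ranbp3 fell by 0.20 to 0.30. The rises were those of Ddx19b (0.58) and of Ranbp10 (0.67) and Ranbp9 (0.17), which are not pore components or carriers. Nupl1 differed by -0.12 (adjusted p = 0.091) and Nupl2 by -0.01 (adjusted p = 0.94).

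Of 20 genes of messenger RNA export, 9 fell (45%) and 2 rose (10%), with a median of -0.14, beside 25.3% and 24.8% of all genes. The falls included Thoc6 (-0.51), Thoc1 (-0.36) and Ddx39b (-0.30), which belong to the TREX complex that loads messenger RNA for export. Zc3h11a (0.40) and Alyref2 (0.39) rose. Nxf1, the export receptor itself, differed by 0.20 (adjusted p = 0.074).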

How the data were processed

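RNA of mouse BCR-ABL1 pre-B cells was prepared by the authors as stranded poly(A) libraries and sequenced in pairs. Per the labels and the study's methods, reads were aligned to GRCm38 with GENCODE vM24 using STAR and quantified with Salmon, and DESeq2 1.30.1 was used. The deposited table holds rlog values, a log2 scale, for 12 columns. Counts are not used here, so depth is unknown and no count test was run. Of the columns, 6 were assigned to 2 groups by name and 6 were not used, because their names, which combine Cre and the inhibitor in 2 spellings, cannot be matched to 1 sample each. Whether counting used the strand is not given in the sources used here; 9 members overlap exons of another gene on the same strand and 13 on the other.

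Genes with a mean rlog of at least 3 were fitted with limma 3.58.1 under R 4.3.3, letting the prior variance follow the mean level (the trend option of eBayes), and two-sided p-values were adjusted by Benjamini-Hochberg over every gene in the fit. The procedure was tested on simulated data. Exact two-sided permutation tests over libraries were used for the gaps of 3 paralog pairs, which were not among the planned results. Identifiers were matched to symbols for 41157 of 41444, and lengths and positions came from GENCODE vM21 (GRCm38). Members with values in every library were the 10 largest falls and up to 5 largest rises among called members without overlap, and 12 genes of fixed name (Ran, Rcc1, Rangap1, Ranbp1, Kpnb1, Kpna2, Xpo1, Cse1l, Nup98, Nup153, Ranbp2 and Tpr); Nup155, Ndc1 and Lmnb2 were added after their values were seen. The members, lists and alternatives were chosen with earlier results of these data known. Alternatives were leaving out each library, other lower limits, thresholds and scalings, no trend, and counting libraries with a shared number as 1 sample.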

Additional observations from a re-analysis of the deposited data

How the results depend on the processing

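Members called lower numbered 25 to 34 under the alternatives, except that 11 did with a log2 difference of at least 0.5. Leaving out each library gave 26 to 30 members lower, 1 to 4 higher, a median difference of -0.35 to -0.26 and 4741 to 6225 genes called in all, against 5778. Members called higher numbered 1 with no lower limit, 1 at a threshold of 0.01 and 0 with a difference of at least 0.5, and 4 without library 3 of both groups (chosen after seeing the data), against 3. All genes called numbered 2388 with a difference of at least 0.5, 4021 at a threshold of 0.01 and 4359 with no lower limit, where most residual variances were 0 and the fit is unreliable. Counting the libraries of shared number as 1 sample gave 29 members lower, 2 higher and 4940 genes called, and among the members with all values it lost the call of Nup88 alone. Quantile normalization gave 43.4% of calls higher, against 49.5%. Nup98, not called, reversed to 0.045 without LY2090314 library 3 (-0.10 to 0.045 over the left-out libraries) and to 0.038 without library 3 of both groups; the cause was not tested. Of 330 values of the 22 members given with all libraries under 15 alternatives, 303 kept direction and side of the threshold, 20 lost the call, 5 gained it and 2 reversed. No paired analysis was possible because the columns carry no replicate numbers that match the sample titles. The deposited scale gives no counts, so counting error could not be set beside any value.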

Other observations

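Of 17 genes of the nuclear lamina and envelope, 6 fell and 3 rose with LY2090314, with a median difference of -0.01. The shares, 35.3% and 17.6%, stand beside 25.3% and 24.8% of all genes, and nothing particular to the list is read from them. Lmnb2, a B-type lamin, was at 10.29, 10.35 and 10.29 in the controls and at 9.26, 9.35 and 9.13 with LY2090314, a difference of -1.06 (limma adjusted p = 9.1e-06). Lmna (-0.67), Tmpo (-0.51), Banf1 (-0.47) and Lmnb1 (-0.23) also fell. Tor1a (0.53), the ATPase of the envelope lumen, rose together with its cofactors Tor1aip1 (0.45) and Tor1aip2 (0.34).

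Of 9 genes of the SUMO pathway, which works at the pore through Ranbp2 and Rangap1, 4 fell (44.4%) and none rose, with a median of -0.13. Over all genes, 25.3% fell and 24.8% rose. Both subunits of the SUMO-activating enzyme fell, Sae1 by 0.49 (limma adjusted p = 0.00013) and Uba2 by 0.35 (adjusted p = 0.0011), as did Senp1 (-0.25) and Sumo2 (-0.24).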
